A study of Mus musculus with 10 samples.

Results

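The 9 genes described here encode transcription factors that pattern progenitors of the dorsal and intermediate neural tube: the paired-box factors *Pax3* and *Pax7*, the homeobox factors *Msx1*, *Msx2*, *Gsx1*, *Gsx2*, *Dbx1* and *Dbx2*, and the bHLH factor *Olig3*. They were chosen by name and found through their gene identifiers. Each matched 1 of the 54146 rows of the count table, and all 9 passed the expression filter that left 19773 genes. RNA of the lumbar spinal cord was sequenced from 10 mouse embryos at E12.5, 5 controls and 5 littermates labelled *Dot1l*-cKO, with the dorsal root ganglia left on the tissue. All embryos were listed under the strain name B6.Cg-E2f1Tg(Wnt1-cre)2Sor/J. The *Dot1l*-cKO embryos carried Wnt1cre2/+ and Dot1l fl/fl, and no control carried the transgene. Litter 1 held 3 controls, all Dot1l fl/fl, and 3 *Dot1l*-cKO embryos, and litter 2 held 2 controls, both Dot1l fl/+, and 2 *Dot1l*-cKO embryos. Litter and number of floxed alleles therefore cannot be told apart in controls. The Wnt1-cre2 driver is known for activity in the dorsal neural tube and neural crest, and per the study it may also reach ventral cells. Which cells lost *Dot1l* was not measured here, and no embryo carried the transgene with an intact *Dot1l*.

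DOT1L methylates lysine 79 of histone H3, a mark of transcribed genes. Along the dorsoventral axis of the neural tube, BMP and Wnt signals from the roof plate and Sonic hedgehog from the floor plate set up bands of dividing progenitors, each recognised by its combination of transcription factors. *Pax3* and *Pax7* cover dorsal progenitors broadly, *Msx1* and *Msx2* respond to BMP next to the roof plate, *Olig3* marks the dorsal-most neuron-producing domains, *Gsx1* and *Gsx2* lie below them, and *Dbx1* and *Dbx2* mark intermediate progenitors around the boundary to the ventral cord. When a progenitor leaves the cell cycle, these genes are mostly switched off. In bulk RNA, fewer cells of a kind and less RNA per cell cannot be told apart.

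Several of the 9 are pairs of related genes, so the sequences they share were examined before their reads were compared. The longest stretches that are identical between the annotated transcripts of both genes of a pair are shown here because they set how well 75 base reads separate the paralogs. All lie in coding sequence.
Pax3 and Pax7: ctggaagtgtccacccctcttggcca
Msx1 and Msx2: tggagcgcaagttccgccagaa
Gsx1 and Gsx2: cagctcctggagctggagcgaga
Dbx1 and Dbx2: atgaaatggcggaa
Olig3 and Olig2: tcggtgcgcaagctctccaagatcgccac
These runs are 26, 22, 23, 14 and 29 bases long, shorter than 1 read, and no member overlaps another annotated gene. The bases before the start sites of *Gsx1* and *Gsx2* are shown because these paralogs, which lie on the same chromosome, differed in the size of their change between litters. Capitals mark TAAT or its reverse complement ATTA, the core that many homeodomain proteins recognise (RefSeq, GRCm38.p6, 250 bases upstream on the plus strand, chr5:147188446-147188695 for *Gsx1* and chr5:75075351-75075600 for *Gsx2*).
Gsx1: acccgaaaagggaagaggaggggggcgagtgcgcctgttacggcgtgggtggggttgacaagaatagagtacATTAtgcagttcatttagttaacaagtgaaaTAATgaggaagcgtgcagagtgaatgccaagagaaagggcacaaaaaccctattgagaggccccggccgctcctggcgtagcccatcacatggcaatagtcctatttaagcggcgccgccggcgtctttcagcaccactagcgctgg
Gsx2: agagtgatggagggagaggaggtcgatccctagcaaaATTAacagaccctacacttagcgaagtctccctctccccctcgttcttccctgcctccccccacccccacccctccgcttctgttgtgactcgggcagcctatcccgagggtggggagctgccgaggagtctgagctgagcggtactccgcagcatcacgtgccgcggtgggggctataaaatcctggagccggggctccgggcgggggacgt
*Gsx1* has 2 such matches and *Gsx2* has 1, and 54.9% of 32851 windows of this length hold at least 1 on either strand. The E-box letters CANNTG, which read the same on both strands, occur 2 times before *Gsx1* and 1 time before *Gsx2*, against 66.2% of all windows with at least 1. RefSeq windows were present for 8 of the 9 genes, not for *Pax3*.

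Levels are given as CPM, counts relative to the library size after TMM scaling, and between genes as TPM, which also divides by exon length. In controls of litter 1, *Pax3* had the highest level at 32.1 ± 1.88 TPM (SD, n = 3), followed by *Olig3* at 28.0 ± 3.25, *Dbx1* at 21.4 ± 2.57, *Gsx1* at 16.8 ± 1.53, *Pax7* at 14.1 ± 1.52 and *Msx1* at 10.5 ± 0.483 TPM. *Dbx2*, *Msx2* and *Gsx2* stood last, at 4.15 ± 0.868, 4.06 ± 0.471 and 4.05 ± 0.159 TPM (SD, n = 3). The ranges of *Pax3* and *Olig3* overlapped, as did those of *Gsx1* and *Pax7* and of the last 3 genes, so these neighbours had no order beyond their spread. In controls of litter 2 the order of the TPM levels was different. *Pax3* stood apart at 55.5 TPM (53.8 and 57.1), *Pax7* was at 29.3 TPM, within the range of *Dbx1* (25.3 and 36.0) and above *Gsx1* (17.0 and 23.3), and *Gsx2* at 11.3 and *Msx2* at 10.8 TPM lay near *Msx1* at 11.8, leaving *Dbx2* alone at the bottom with 4.69 TPM.

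In 8 of the 9 genes the difference between litters was larger in size than that between genotypes, *Olig3* being the exception. All 9 had a positive log2 fold change for litter 2 against litter 1, and 7 passed the test (quasi-likelihood test of edgeR, genotype in the model, Benjamini-Hochberg adjusted p over all genes below 0.05). Over all 19773 genes 34.7% were called by litter, 16.9% as higher in litter 2. The median log2 fold change was 0.64 over the 9 genes and -0.02 over all genes tested. By genotype 0 of the 9 passed the same test with litter in the model, where 2.99% of all genes were called, and 5 had an unadjusted p under 0.05, as had 21.7% of all genes.

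**Figure D1:**
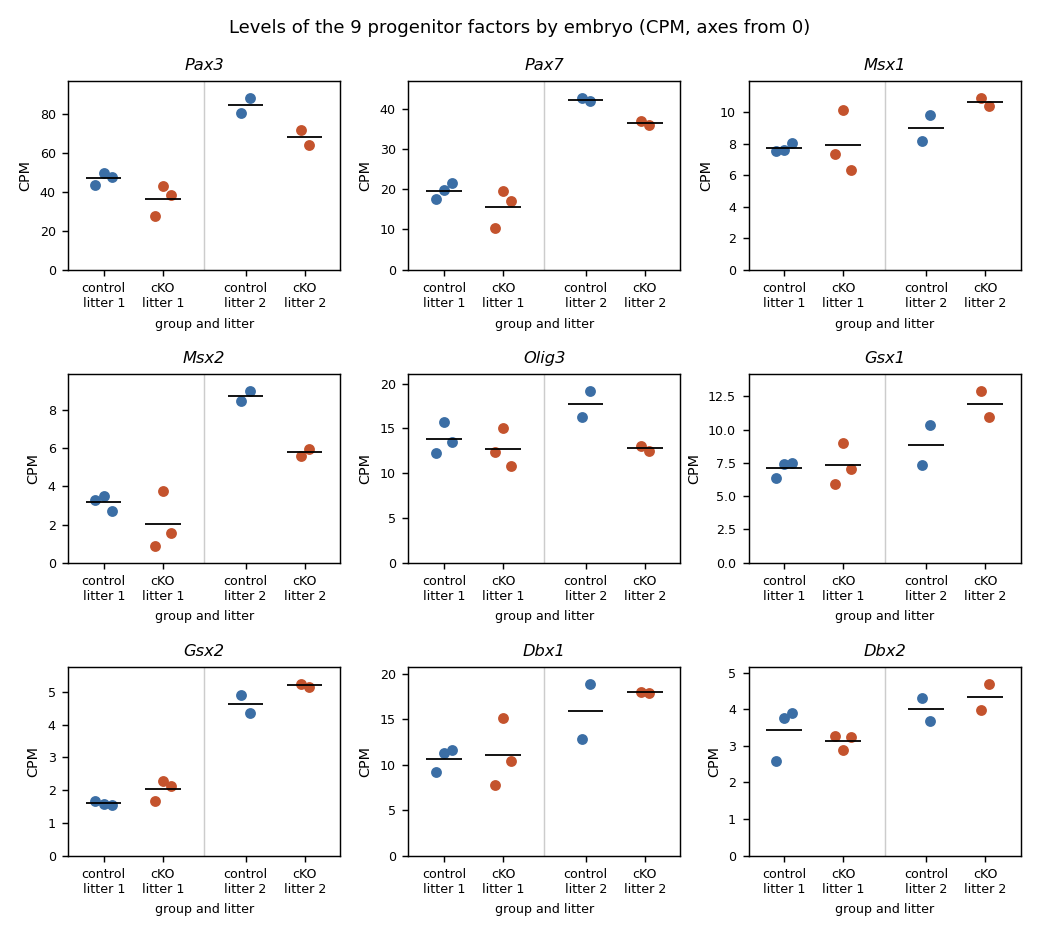
CPM of each of the 9 genes (vertical axes from 0) in controls (blue) and embryos labelled Dot1l-cKO (red), by litter, with 1 point per embryo and a line at the mean. Points of Pax3, Pax7, Msx2 and Gsx2 in litter 2 lie above every point of litter 1, and Pax3 is lower in Dot1l-cKO embryos than in all control littermates in both litters.

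*Pax3* and *Pax7* mark dorsal progenitors, and both are also expressed in muscle precursors, with *Pax3* in early neural crest too. *Pax3* (chromosome 1 from 78101267 to 78197134, minus strand) was at 43.9, 50.0 and 47.7 CPM in the controls of litter 1 and at 80.9 and 88.4 CPM in those of litter 2. In *Dot1l*-cKO embryos it was at 27.8, 43.3 and 38.4 CPM in litter 1 and at 72.0 and 64.2 CPM in litter 2. Every *Dot1l*-cKO embryo lay below all its control littermates, a pattern found in this direction in 4.15% of all genes tested. *Pax3* had a log2 fold change of -0.35 by genotype (standard error 0.09, 95% interval -0.55 to -0.15), and its adjusted p was 0.0573 with edgeR's quasi-likelihood test, just above the threshold. The call turned on the setting, as DESeq2 gave an adjusted p of 0.0094 and a log2 fold change of -0.35, and edgeR called *Pax3* without *Dot1l*-cKO replicate 2 (adjusted p = 0.0322) or replicate 3 (adjusted p = 0.0461), while leaving out any of the other 8 embryos gave no call. By litter *Pax3* rose 1.83-fold (0.87 ± 0.09 standard error on the log2 scale, adjusted p = 1.0e-05), and litters did not overlap, as in this direction in 11.9% of all genes.

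*Pax7* (chromosome 4 from 139737062 to 139833528, minus strand) was at 17.5, 19.8 and 21.6 CPM in controls of litter 1 and at 42.6 and 42.0 CPM in controls of litter 2. In *Dot1l*-cKO embryos it was at 10.4, 19.5 and 17.0 CPM, then 37.0 and 36.1 CPM in litter 2. The groups overlapped in litter 1 but not in litter 2, where 27.5% of all genes were lower and 24.2% higher without overlap. *Pax7* had a log2 fold change of -0.28 by genotype (standard error 0.13, adjusted p = 0.215) and rose 2.25-fold from litter 1 to litter 2 (log2 fold change 1.17, standard error 0.13, adjusted p = 1.1e-05). Litters did not overlap for *Pax7* either. Over fits that each left out 1 embryo, the genotype value of *Pax7* ranged from -0.37 to -0.15, the latter without *Dot1l*-cKO replicate 1, and 0 of 10 fits called it (edgeR, lowest adjusted p = 0.11). Markers of skeletal muscle, which shares both genes, had a summed level of 4.99 to 42.9 CPM in controls and 6.39 to 37.4 CPM in *Dot1l*-cKO embryos of litter 1, and 46.5 to 48.6 against 16.1 to 17.1 CPM in litter 2, and the 9 of 10 markers that could be tested had medians of -0.97 by genotype, with all 9 lower, and 0.52 by litter, with all 9 higher, on the log2 scale. By edgeR 0 of these 9 passed in either comparison, against 2.99% of all genes by genotype and 34.7% by litter. An unadjusted p under 0.05 was found in 1 and 0 of them, against 4290 and 8653 of all 19773 genes. The part of muscle in the levels of *Pax3* and *Pax7* was not tested.

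*Msx1* and *Msx2* encode homeodomain repressors induced by BMP near the dorsal midline, and both are also expressed in neural crest and mesenchyme. *Msx2* (chromosome 13 from 53466884 to 53473074, minus strand) was at 3.28, 3.49 and 2.72 CPM in controls of litter 1 and at 8.50 and 9.01 CPM in those of litter 2. In *Dot1l*-cKO embryos it was at 0.866, 3.74 and 1.54 CPM in litter 1 and at 5.59 and 5.99 CPM in litter 2. Replicate 2 of the *Dot1l*-cKO lay above all controls of its litter and replicates 1 and 3 below. In litter 2 both *Dot1l*-cKO embryos lay below both controls, as in 27.5% of all genes. With this spread the genotype log2 fold change of *Msx2*, -0.62, had a standard error of 0.26 and an adjusted p of 0.185 (edgeR, 95% interval -1.17 to -0.06). Without *Dot1l*-cKO replicate 2 it was -0.97 with an adjusted p of 0.0283, and without replicate 1 it was -0.42 with an adjusted p of 0.301, the ends of the range with each embryo left out, of which only the first was called. By litter *Msx2* rose 2.81-fold (log2 fold change 1.49, standard error 0.26, adjusted p = 0.00049), without overlap.

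*Msx1* (chromosome 5 from 37820485 to 37824583, minus strand) changed less than its paralog. It was at 7.53, 7.62 and 8.07 CPM in controls of litter 1 and 8.18 and 9.84 CPM in those of litter 2, and at 7.34, 10.2 and 6.33 CPM, then 10.9 and 10.4 CPM, in *Dot1l*-cKO embryos. The groups overlapped in litter 1, and both *Dot1l*-cKO embryos of litter 2 were above both controls, as in 24.2% of all genes. *Msx1* had a log2 fold change of 0.12 by genotype (standard error 0.12, adjusted p = 0.596), and 0.015 to 0.21 with each embryo left out. By litter it was 0.32 (standard error 0.12, adjusted p = 0.0477), a call that passed in 3 of 10 fits with 1 embryo removed and was absent with library size only (adjusted p = 0.0891). Markers of mesenchyme and meninges summed to 1620 to 2173 CPM in controls and 1123 to 1772 CPM in *Dot1l*-cKO embryos of litter 1, and to 1131 to 1306 against 1365 to 1549 CPM in litter 2, with none of the 14 at 0 in all embryos. Their part in the *Msx* levels was not tested.

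*Olig3*, the bHLH factor of the progenitors of commissural and other early dorsal neurons, was the gene least moved by litter. Per the study it is also found in early postmitotic dorsal interneurons and in ventral postmitotic ones. *Olig3* (chromosome 10 from 19356533 to 19358604, plus strand) was at 12.3, 15.7 and 13.4 CPM in controls of litter 1 and at 16.3 and 19.2 CPM in those of litter 2. In *Dot1l*-cKO embryos it was at 12.3, 15.0 and 10.8 CPM, and at 13.04 and 12.46 CPM in litter 2. The groups overlapped in litter 1 and stood apart in litter 2, where the *Dot1l*-cKO embryos were lower, as in 27.5% of all genes. The genotype log2 fold change of *Olig3* was -0.26 (standard error 0.11, adjusted p = 0.174), made up of -0.12 in litter 1 and -0.47 in litter 2. The difference between the litters was not resolved (interaction log2 fold change -0.35, standard error 0.20, adjusted p = 0.659). By litter *Olig3* had a log2 fold change of 0.19 (adjusted p = 0.207). Among controls alone it was 0.37 (adjusted p = 0.0438) and among *Dot1l*-cKO embryos 0.01 (adjusted p = 0.977), and over both groups it passed only without *Dot1l*-cKO replicate 2 (adjusted p = 0.0407) of the 10 embryos removed in turn.

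*Gsx1* and *Gsx2* act in dorsal progenitors that produce association interneurons. *Gsx2* (chromosome 5 from 75075601 to 75077893, plus strand) was at 1.67, 1.58 and 1.55 CPM in controls of litter 1 and at 4.92 and 4.35 CPM in controls of litter 2. In *Dot1l*-cKO embryos it was at 1.66, 2.27 and 2.13 CPM, and at 5.24 and 5.16 CPM in litter 2. The lowest embryo of litter 2 was well above the highest of litter 1, and *Gsx2* rose 2.72-fold by litter (log2 fold change 1.45, standard error 0.12, adjusted p = 1.5e-06). By genotype its log2 fold change was 0.26 (standard error 0.12, adjusted p = 0.214). The groups were apart in litter 2 only, where 24.2% of all genes were higher without overlap.

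*Gsx1* (chromosome 5 from 147188696 to 147190947, plus strand) was at 6.32, 7.41 and 7.49 CPM in controls of litter 1, then 7.33 and 10.3 CPM in litter 2, and at 5.94, 8.98 and 7.02 CPM in *Dot1l*-cKO embryos of litter 1, then 12.9 and 10.9 CPM in litter 2. Litters overlapped through control replicate 4 and *Dot1l*-cKO replicate 2. *Gsx1* rose 1.43-fold by litter (0.52 ± 0.13 standard error on the log2 scale, edgeR adjusted p = 0.00824). This call was lost among controls alone (log2 fold change 0.32, adjusted p = 0.168) and with *Xist* as a covariate (0.32, adjusted p = 0.233). The genotype log2 fold change of *Gsx1* was 0.20 (standard error 0.13, adjusted p = 0.402), and 0.10 to 0.30 with each embryo left out. In litter 2 both *Dot1l*-cKO embryos were above both controls, as in 24.2% of all genes. The log2 fold change by genotype was 0.43 there (edgeR, adjusted p = 0.283) against 0.05 in litter 1 (adjusted p = 0.929).

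*Dbx1* and *Dbx2* mark the progenitors on either side of the dorsoventral boundary, the former in a narrower band. *Dbx1* (chromosome 7 from 49631499 to 49636849, minus strand) was at 9.18, 11.2 and 11.6 CPM in controls of litter 1, then 12.8 and 18.8 CPM in litter 2, and at 7.71, 15.1 and 10.4 CPM in *Dot1l*-cKO embryos of litter 1, then 17.98 and 17.87 CPM in litter 2. Its genotype log2 fold change of 0.11 (standard error 0.15, 95% interval -0.22 to 0.43, adjusted p = 0.733) became -0.037 without *Dot1l*-cKO replicate 2. *Dbx1* rose 1.55-fold by litter (log2 fold change 0.64, standard error 0.15, adjusted p = 0.00528), with litters overlapping through *Dot1l*-cKO replicate 2 and control replicate 4. With *Xist* as a covariate this call was lost (edgeR, log2 fold change 0.58, adjusted p = 0.0788). *Dbx2* (chromosome 15 from 95623563 to 95655960, minus strand) was at 2.598 to 3.91 CPM in controls of litter 1 and 2.88 to 3.26 CPM in *Dot1l*-cKO embryos, and at 3.69 to 4.32 and 3.99 to 4.69 CPM in litter 2. By genotype *Dbx2* had a log2 fold change of -0.03 (95% interval -0.31 to 0.25, adjusted p = 0.924), whose sign turned in litter 2 alone and in 3 of 10 fits with 1 embryo removed. By litter it was 0.35 (adjusted p = 0.0524), near the threshold. It passed in 4 of 12 other settings (DESeq2, DESeq2 size factors, limma-voom and legacy = FALSE, adjusted p from 0.0339) and in 3 of 10 fits with 1 embryo left out, and had an adjusted p of up to 0.443 in the rest.

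**Figure D2:**
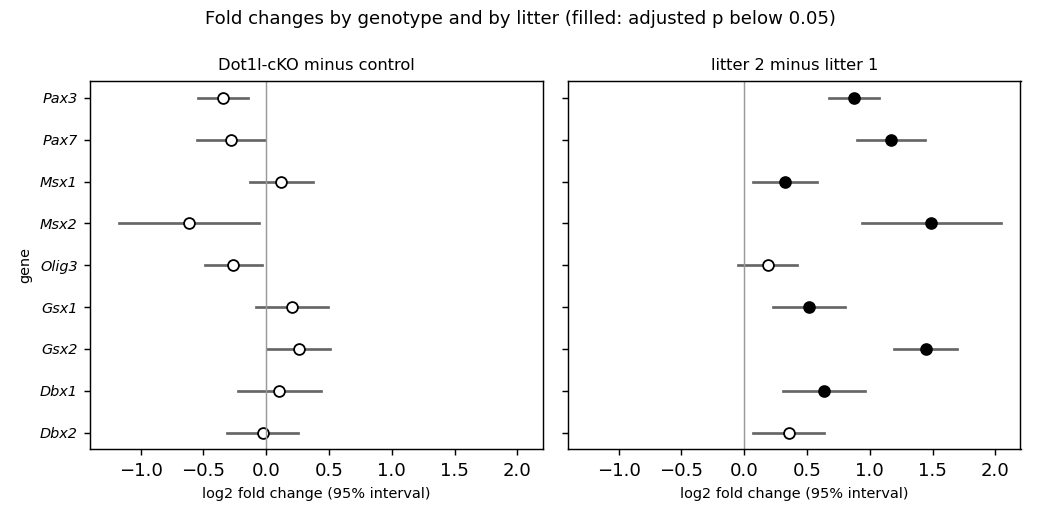
Log2 fold changes with 95% intervals of the 9 genes, left for Dot1l-cKO minus control with litter in the model and right for litter 2 minus litter 1 with genotype in the model, filled where the adjusted p is below 0.05. No marker is filled on the left, where Pax3 has the narrowest interval (-0.55 to -0.15), and 7 are filled on the right, from Msx1 at 0.32 to Msx2 at 1.49.

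Within each group the direction by litter was the same. Among controls alone 6 of the 9 passed and among *Dot1l*-cKO embryos 4 of the 9, all higher in litter 2, against 11.6% and 8.92% of all genes called in that direction. Among *Dot1l*-cKO embryos litter cannot be told apart from sex, since *Xist* was low and Y-linked counts were high in both embryos of litter 2 and in none of litter 1. *Pax3*, *Pax7* and *Gsx2* passed in both groups, with log2 fold changes of 0.85, 1.11 and 1.54 in controls and 0.90, 1.23 and 1.36 in *Dot1l*-cKO embryos. *Msx2* had 1.48 in controls (adjusted p = 4.2e-05) and 1.51 in *Dot1l*-cKO embryos (adjusted p = 0.0526). Within litter 1 and within litter 2, 0 of the 9 passed by genotype, against 0.612% and 0.202% of all genes, with 1 and 2 of the 9 at an unadjusted p under 0.05, as had 15.4% and 17.1% of all genes. In litter 2 fitted alone, *Pax3*, *Msx2* and *Olig3* passed as lower, where 5.13% of all genes were called and 1.16% were called lower. In that litter genotype cannot be told apart from sex, and both controls were Dot1l fl/+. The genotype effect differed between litters in 0 of the 9 (0 at an unadjusted p under 0.05, as had 8.19% of all genes), where 0.0101% of all genes were called, and DESeq2's test of the difference called none of the 9.

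Ratios within an embryo do not depend on library scaling. Relative to *Sox2*, a factor of all neural progenitors, and to the paralog, 13 log2 ratios of counts (pseudocount 0.5) were compared by exact permutation tests, two-sided and with Benjamini-Hochberg adjustment over the 13. *Sox2* itself was at 101 to 113 CPM in controls and 90.4 to 127 CPM in *Dot1l*-cKO embryos of litter 1, and at 138 to 165 and 144 to 151 CPM in litter 2. It had a log2 fold change of -0.05 by genotype (adjusted p = 0.764) and 0.49 by litter (adjusted p = 0.000456).

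Between the genotype groups 0 of the 13 ratios passed, and 4 had an unadjusted p under 0.05. After adjustment over the 13, 1 ratio at the smallest possible p could not pass alone. This count therefore cannot show that no ratio changed. *Pax3* to *Sox2* was at -1.20, -1.16 and -1.24 in controls of litter 1 and -1.70, -1.55 and -1.30 in their *Dot1l*-cKO littermates, then at -0.77 and -0.90 against -1.002 and -1.23 in litter 2. All 5 *Dot1l*-cKO embryos lay below every control littermate. The mean difference of *Pax3* to *Sox2* was -0.30 (exact permutation within litters, p = 0.0167, the smallest that the 120 arrangements allow, adjusted p = 0.108). The ratio of *Msx2* to *Msx1* differed by -0.87 (exact p = 0.0333, adjusted p = 0.108), with 4 of 5 *Dot1l*-cKO embryos below all control littermates, and *Gsx2* to *Sox2* by 0.32 (exact p = 0.0333, adjusted p = 0.108). *Pax7* to *Pax3* differed by 0.05 (exact p = 0.50, adjusted p = 0.65), so a change of one relative to the other was not detected.

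Between litters, with labels exchanged within genotype groups, 8 of the 13 ratios passed, and for 7 of these the ratio was higher in litter 2. The paralogs moved by unequal amounts. *Msx2* to *Msx1* lay between -3.07 and -1.12 in litter 1 and between -0.96 and 0.06 in litter 2 (difference of means 1.28, exact p = 0.01, the smallest that 100 arrangements allow, adjusted p = 0.0186). *Gsx2* to *Gsx1* lay between -2.26 and -1.72 in litter 1 and between -1.30 and -0.57 in litter 2 (difference 0.94, exact p = 0.01, adjusted p = 0.0186). *Pax7* to *Pax3* was higher in litter 2 by 0.31 (exact p = 0.01, adjusted p = 0.0186), again in 4 of 4 embryos above all 6 of litter 1. Of *Dbx2* to *Dbx1* the difference was -0.30, with an exact p of 0.27 (adjusted p = 0.319).

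Relative to *Sox2*, *Pax3*, *Pax7*, *Msx2* and *Gsx2* were higher in litter 2 by 0.38, 0.70, 1.12 and 0.95 on the log2 scale, and *Olig3* was lower (difference -0.31, exact p = 0.01, adjusted p = 0.0186) although its CPM was not. In controls *Olig3* to *Sox2* was at -3.07 to -2.83 in litter 1, and at -3.08 and -3.10 in litter 2. In *Dot1l*-cKO embryos it was at -3.13 to -2.87 in litter 1. It was at -3.47 and -3.59 in those of litter 2, which also differed in sex-linked genes. *Gsx1* to *Sox2* differed by 0.01 (exact p = 0.88, adjusted p = 0.88), while its difference by genotype was 0.11 in litter 1 and 0.47 in litter 2. Except for *Gsx2*, these calls relative to *Sox2* missed the threshold with another reference gene, some narrowly. Relative to *Nes*, another progenitor gene whose CPM rose by 0.81 on the log2 scale between litters, *Pax3* differed by 0.07 (adjusted p = 0.47), *Pax7* by 0.38 (adjusted p = 0.0557), *Msx2* by 0.80 (adjusted p = 0.116) and *Olig3* by -0.62 (adjusted p = 0.052) in the same exact test. *Gsx2* (0.63) and the paralog ratios of *Msx*, *Gsx* and *Pax* passed, 4 of 13 in all. Without control replicate 5 no ratio passed between litters (smallest p 0.025 with 40 arrangements), and without any other embryo 5 to 8 did.

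**Figure D3:**
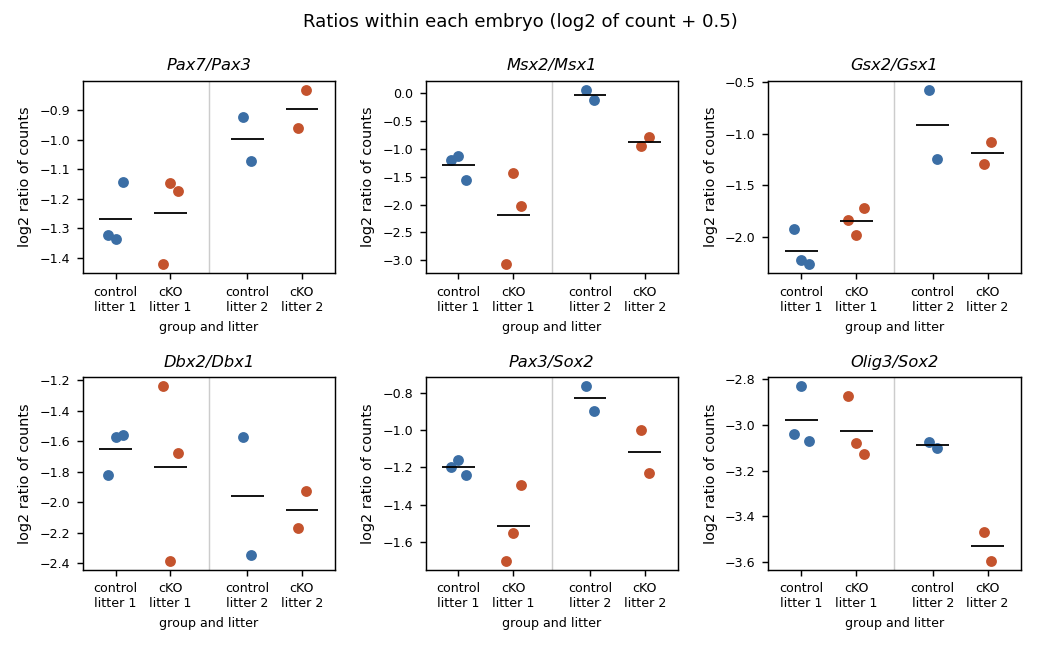
Log2 ratios of counts within each embryo (count + 0.5) for the 4 paralog pairs and for Pax3 and Olig3 relative to Sox2, by group and litter, with 1 point per embryo and a line at the mean. Msx2/Msx1 and Gsx2/Gsx1 in litter 2 lie above all embryos of litter 1, by 1.28 and 0.94 on average, and Olig3/Sox2 is lowest in the 2 Dot1l-cKO embryos of litter 2.

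Other genes of the same progenitors were read from lists of known markers, whose counts by litter stand beside 16.9% of all genes called higher and 17.8% called lower. Their counts by genotype stand beside 2.99% of all genes called, and 21.7% at an unadjusted p under 0.05. Of 20 other dorsal and intermediate progenitor genes, 16 rose and 0 fell in litter 2 (median log2 fold change 0.73), among them *Msx3* (1.21), *Pax6* (0.64) and *Gbx2* (0.68). By genotype 3 of these 20 fell and 0 rose, against 215 and 376 of all 19773 genes (median -0.21, against -0.01 over all genes). They were *Zic4* (log2 fold change -0.95, adjusted p = 0.000644), *Zic5* (-0.85, adjusted p = 0.000551) and *Zic1* (-0.34, adjusted p = 0.0194), zinc finger factors of dorsal progenitors. The 9 patterning factors had a genotype median of -0.03. Of 8 ventral progenitor genes that could be tested 0 passed by genotype (edgeR, 3 at an unadjusted p under 0.05, median 0.06), and by litter 3 rose, *Foxn4* (1.01) and *Nkx6-2* (0.71) among them, and 2 fell, *Olig1* (-2.32) and *Olig2* (-0.51), which also mark oligodendrocyte precursors.

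Of 24 BMP and Wnt signals and their targets, 1 rose by genotype, the BMP target *Id1* (log2 fold change 0.84, adjusted p = 0.0313), and by litter 4 rose, including *Wnt3a* (1.04), *Wnt1* (0.70) and *Wnt4* (0.45), and 3 fell, including *Rspo2* (-0.73). With a litter median of 0.03 and shares near those of all genes, these counts do not set the signals apart. Of 21 factors of the daughter neurons, 3 rose by genotype, *Gbx1* (0.50), *Lmx1b* (0.36) and *Prrxl1* (0.32), and 0 fell, against 376 and 215 of all 19773 genes. By litter 8 of the 21 rose, *Lhx9* (0.82) among them, and 3 fell (median over the 21 of 0.07). Those that fell were the same 3 genes, with log2 fold changes of -0.69, -0.91 and -0.81.

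All 10 genes of cycling cells were higher in litter 2 (median log2 fold change 1.03) and passed, among them *Pcna* (0.75), *Ccnb1* (1.16), *Ccna2* (1.12) and *Mcm5* (0.96), and their summed level was 564 to 930 CPM in litter 1 and 1438 to 1805 CPM in litter 2. By genotype *Mki67* (-0.49, adjusted p = 0.0376) and *Pcna* (-0.19, adjusted p = 0.0492) passed as lower, 2 of 10, against 215 of all 19773 genes. The median of the 10 was -0.22. Of 13 pan-progenitor genes 11 rose in litter 2, *Rfx4* (0.71), *Nes* (0.81) and *Sox3* (1.30) among them, and *Slc1a3* (-0.63), a glutamate transporter of radial glia, fell. By genotype 0 of the 13 passed (edgeR), 1 had an unadjusted p under 0.05, and the median was -0.01.

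Most markers of neurons and of dorsal root ganglion neurons had lower levels in litter 2. Of 13 neuron genes 7 fell in litter 2 (median -0.16), including *Snap25* (-0.41), *Gap43* (-0.44), *Rbfox3* (-0.50) and *Nefm* (-0.28), and *Nefl* fell by genotype (-0.22, adjusted p = 0.0284). Of 8 genes of dorsal root ganglion neurons 5 fell in litter 2 (median -0.62), among them *Avil* (-1.78), *Runx1* (-1.45) and *P2rx3* (-0.71). By genotype *Runx3* (-0.71, adjusted p = 0.0483) passed as lower over both litters. The summed level of the 8 ganglion genes was lower in *Dot1l*-cKO embryos of litter 1 (344 to 433 CPM against 500.01 to 558 in controls) and higher in those of litter 2 (270.03 to 310 against 214 to 216 CPM), without overlap in either. Within litters 4 of the 8 fell in litter 1 (median -0.31) and 1 rose in litter 2 (median 0.48), where 0.612% and 0.202% of all genes were called. For the difference between litters 0 of the 8 passed (edgeR), and 8 had an unadjusted p under 0.05, as had 8.19% of all genes. Of 8 genes of neural crest and Schwann cell precursors, 3 fell and *Tfap2b* (0.23) and *Tfap2a* (0.31) rose in litter 2. In blood and endothelium 4 of 8 rose in litter 2, among them the red cell genes *Hba-x* (1.51), *Hbb-y* (0.87) and *Alas2* (0.45), and the endothelial gene *Cdh5* (-0.33, named after its value was seen) fell. In mesenchyme 4 of 14 rose (*Meox1*, 1.21, *Prrx1*, 0.62, and *Twist1*, 0.66, among them) and *Dcn* (-0.50) fell. The part of cell makeup in the levels of the 9 factors was not tested.

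**Figure D4:**
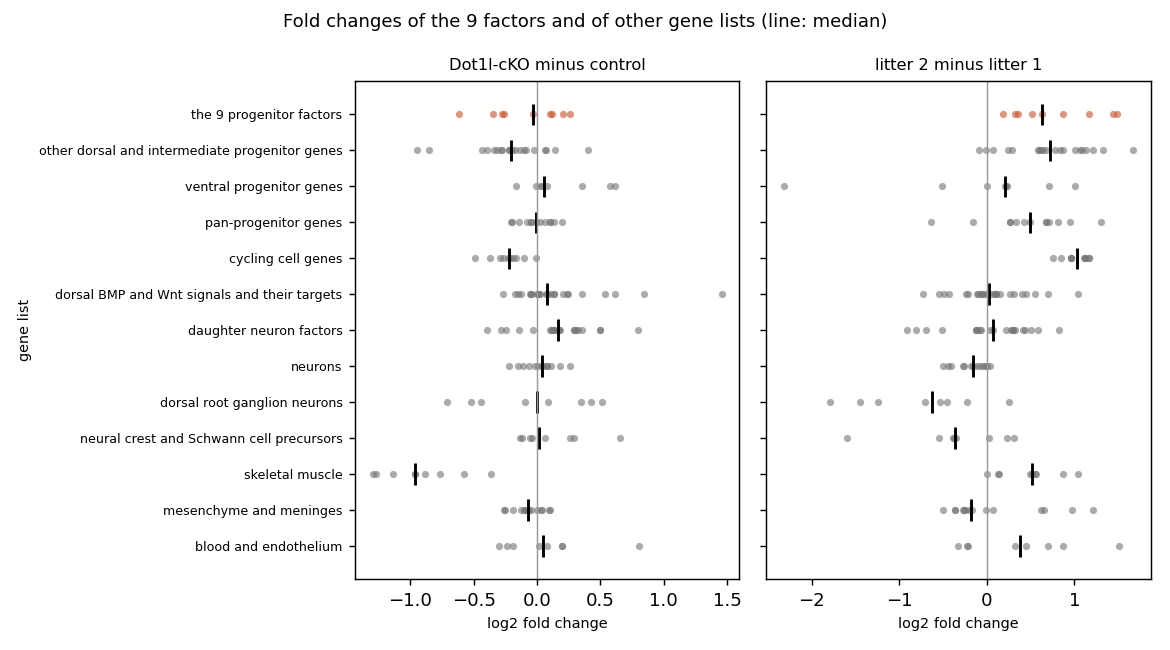
Log2 fold change of each gene (points) and median (line) in the 9 progenitor factors and 12 other gene lists, left for Dot1l-cKO minus control and right for litter 2 minus litter 1. On the right the 9 factors (median 0.64) lie between pan-progenitor genes (0.49) and cycling cell genes (1.03), and dorsal root ganglion neurons lie below 0 (-0.62).

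The genes whose levels followed each factor most closely over the 10 embryos were named by the root mean square difference of log2 CPM after centring each gene. Closest to *Pax3* were the condensin genes *Ncaph* (0.032 log2 units) and *Smc4* (0.057) and *2610318N02Rik* (0.057), where *Pax3* itself ranged over 1.65 log2 units. Closest to *Pax7* were *Top2a* (0.087), *Bub1* (0.091) and *Uhrf1* (0.092), genes of DNA topology, the spindle checkpoint and maintenance of DNA methylation in dividing cells. Among the neighbours of *Gsx2* were *Grap2* (0.20) and *Ska1* (0.20), and those of *Msx2* were *Fndc3c1* (0.26), *Hmga2* (0.28) and *Neurog1* (0.29), a looser fit in a gene that ranged over 2.80 log2 units. *Msx1* was followed by *Kif7* (0.069), *Fzd2* (0.072) and *Fiz1* (0.079), *Dbx1* by *Irx5* (0.12), *Insm1* (0.12) and *Pou3f1* (0.12), and *Gsx1* by *Fam110a* (0.093), *Syce2* (0.10) and *Zbtb42* (0.12). Among the nearest to *Olig3* were *Gm6136* (0.099) and *Rps16-ps2* (0.12), and *Dbx2* was nearest to *Fam69c* (0.085), *Hoxc10* (0.11) and *Slc16a10* (0.12). These distances describe 10 embryos that share 2 litters, and genes with little variation lie near one another by this measure.

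Total counts on genes were 40949585 to 61194291 in controls and 54870771 to 68928443 in *Dot1l*-cKO embryos, and the 9 genes had 52 (*Msx2*) to 4082 (*Pax3*) counts per embryo. Whole-gene *Dot1l* counts were 87.6 to 107 CPM in controls and 97.8 to 112 CPM in *Dot1l*-cKO embryos (log2 fold change 0.17, adjusted p = 0.130) and so do not check the label. *E2f1*, a cell cycle factor whose symbol is in the strain name, was at 14.2 to 19.4 CPM in *Dot1l*-cKO embryos against 21.6 to 23.8 in controls of litter 1, and at 36.5 to 38.8 against 42.0 to 47.0 CPM in litter 2 (log2 fold change -0.32, edgeR adjusted p = 0.04997), lower in all 5 than in every control littermate. Both *Dot1l*-cKO embryos of litter 2 had high Y-linked counts (*Kdm5d* 59.4 and 54.7 CPM, at most 0.438 in the others) and low *Xist* (6.00 and 6.79 CPM, at least 499 in the others), so in litter 2 sex and genotype cannot be told apart. Without these embryos the litter calls of *Pax3*, *Pax7*, *Msx2* and *Gsx2* remained, and those of *Gsx1* (adjusted p = 0.268), *Dbx1* (0.109) and *Msx1* (0.439) were lost, with log2 fold changes of 0.32, 0.57 and 0.22. By genotype 0 of the 9 factors passed without these embryos (edgeR), and 1 had an unadjusted p under 0.05. Of all 20156 genes tested there, 77 passed and 2876 had an unadjusted p under 0.05.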

How the data were processed

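The deposited values of the 10 embryos are counts per gene, without normalization. The authors trimmed paired 75 base reads of polyA RNA, aligned them with STAR (mm10) and counted them with featureCounts on a GENCODE annotation. The strand setting is not given in the sources used here. Gene names came from GENCODE M21 (GRCm38), which held 54079 of 54146 identifiers. Litter was read from the sample names.

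With R 4.3.3 and edgeR 4.0.16, counts were filtered by filterByExpr, scaled by TMM and tested by the quasi-likelihood test, with genotype and litter as terms and p-values adjusted over all genes after Benjamini and Hochberg (threshold 0.05). Within-litter effects came from 1 nested fit over all embryos. Levels between genes are TPM over union exon length. Ratios were tested by exact permutation in Python 3.11.15. Alternatives were DESeq2 1.42.0, limma 3.58.1 (voom), other scalings and filters, *Xist* as a covariate, and leaving out embryos or a litter.

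The members and lists were chosen with earlier results of these data known. Named were the members, *Sox2*, per list at most 4 genes with the smallest p and an adjusted p below 0.05 by genotype and by litter, the 3 genes nearest to each member with a mean log2 CPM of 1 or more, and the label checks, and some genes that this rule names are not reported here. *Nes* served as the second reference. Within groups all 20 pairs differed beyond sampling noise (chi-square per gene 8.90 to 82.2), so each embryo is 1 replicate.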

Additional observations from a re-analysis of the deposited data

Results flagged for a closer look

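Of 54 groups of 5 embryos examined, 3 had an embryo whose gap to the next, as a share of the group's range, exceeded 0.71, and chance gives about 1 in 20. *Msx1* in controls was highest in replicate 5 (9.84 CPM, gap share 0.718). Among controls, *Olig3* to *Sox2* was highest in replicate 2 (log2 ratio -2.83, gap share 0.762) and *Gsx1* to *Sox2* was lowest in replicate 4 (-4.23, gap share 0.738). These 5 embryos come from 2 litters.

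The genotype effect on *Xist* differed between litters (interaction term of the edgeR fit -6.46 on the log2 scale, adjusted p = 1.1e-08), with both *Dot1l*-cKO embryos of litter 2 low. None of the 9 progenitor factors had such a difference.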

How the results depend on the processing

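Leaving out the litter (no replicate block) gave 0 genotype calls over all genes (1935 at an unadjusted p under 0.05) against 591, and 0 of the 9 factors as before. Other settings gave 1508 (DESeq2), 2201 (no expression filter), 49 (*Xist* as a covariate), 77 (without both embryos with Y-linked counts, an alternative chosen after seeing the data), 12 (litter 1 alone) and 964 (litter 2 alone), and 53 to 1377 with each embryo left out. Of the 9 factors these called 1 (*Pax3*, DESeq2), 3 (*Pax3*, *Pax7* and *Msx2*, no expression filter) and 3 (*Pax3*, *Msx2* and *Olig3*, litter 2 alone), all lower, and 0 to 2 with an embryo left out. The litter called 6858 genes, 4376 without both embryos with Y-linked counts and 3661 in *Dot1l*-cKO embryos alone, and 4 of the 9 factors in both of these and with *Xist* as a covariate. With library size only, 37.2% of the litter calls were higher, against 48.7% with TMM, and the median of the 9 factors was 0.59 against 0.64. The interaction called 2 genes, 4 with library size only, 94 with DESeq2, 1 with limma-voom, 1 with legacy = FALSE and 437 without a filter, and 1 to 126 with an embryo left out. None of these runs called any of the 9. The within-litter genotype calls were 121 and 40 in the nested fit, and 12 and 964 in each litter alone (0 and 3 of the 9). The cause of these shifts was not tested.

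Some signs turned. The genotype log2 fold change of *Dbx2* was 0.12 in litter 2 alone and -0.10 to 0.045 with an embryo left out, and that of *Dbx1* was -0.037 to 0.23. With an embryo left out, interactions ranged from -0.33 to 0.79 (*Msx2*), -0.11 to 0.20 (*Pax3*), -0.12 to 0.43 (*Dbx1*) and -0.11 to 0.31 (*Pax7*). Genotype differences of log2 ratios ranged from -0.051 to 0.16 (*Dbx2* to *Sox2*), -0.0041 to 0.22 (*Gsx2* to *Gsx1*) and -0.25 to 0.064 (*Dbx2* to *Dbx1*). Between litters, a contrast of ratios added after seeing the data, 8 of 13 ratios passed, 4 with *Nes* in place of *Sox2*, where *Gsx1* (-0.30) and *Dbx1* (-0.16) turned negative, and 0 to 8 with an embryo left out, over which *Gsx1* to *Sox2* ranged from -0.087 to 0.10. With 2 or 3 embryos per group and litter, changes below the intervals given cannot be resolved.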
